A study of Oncorhynchus kisutch with 206 samples.

Results

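The 150 probes described here were lower in the brains of coho salmon caught off the west coast of Vancouver Island than in those caught in the Strait of Georgia, in fall 2008 and again in fall 2009. They were chosen from a salmonid microarray of 43630 probes. A probe was eligible if it had a value on all 206 arrays (10942 probes did) and if its mean over fall fish lay within 0.2 of its mean over summer fish on the log2 scale, which left 5700 probes. Among these, the members are the 150 whose smaller drop off the west coast, of the 2 fall years, was the greatest. The fall difference between the coasts was thus selected on and is given as a description with no test.

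Each array compared the brain RNA of 1 fish, labelled with Alexa 555, with a pool of all brain samples, labelled with Alexa 647. Values are taken as log2 ratios of fish over pool, so that a lower value means less RNA relative to the pool. Neither the base nor the direction is stated in the labels: a natural log would make every difference larger when read as a fold, and the opposite direction would turn every "lower" into "higher". The dyes were never swapped. The labels give no treatment. Groups are those of season, year and coast, with NM_SoG and south_SoG joined as the Strait. In the sea these were 12 spring fish of 2009 (all from south_SoG), 8 summer fish of 2008 and 35 of 2009 from the Strait, 8 summer fish of 2009 from the west coast, 11 and 43 fall fish from the Strait and 17 and 7 from the west coast (2008 and 2009), and 3 winter fish from the Strait and 6 from the west coast. In rivers they were 5 parr and 16 smolts of the Chilliwack (2008) and 10, 8, 8 and 9 smolts of the Capilano, Chehalis, Puntledge and Salmon (2009). No ages are used here, and fork length ran from 4.70 cm in parr to 38.0 cm in winter. All spring fish, winter Strait fish and Salmon smolts were wild. All parr and all Chehalis and Puntledge smolts were from hatcheries. Elsewhere hatchery fish were 4 of 8 and 18 of 35 in Strait summer (2008 and 2009) and 1 of 8 in west coast summer. In fall they were 4 of 11 and 21 of 43 in the Strait and 5 of 17 and 1 of 7 off the west coast. They were 4 of 6 in west coast winter, 10 of 16 in Chilliwack smolts and 7 of 10 in Capilano smolts.

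Coho salmon rear in fresh water as parr, turn into smolts that migrate to sea, and feed in coastal water before they mature. The Strait of Georgia is sheltered water on the inner side of Vancouver Island, while the west coast of the island faces the open Pacific. Fish of many rivers mix in both, and the stock region in the labels names where a fish came from, not where it was caught. The brain of a salmon directs feeding, growth hormone release, salt balance and migration. The probes carry only position names (C for the column and R for the row of the array), and their genes are not given in the tables used here, so no gene, pathway or cell type is named and no marker of brain or other tissue could be read.

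Among the arrays, 16.6% to 57.6% of the values were empty and the SD over all values that were not empty ran from 0.507 to 1.61. One array bears on the summer results. West coast summer fish 2314 had an SD of 1.05, which 21 of the 206 arrays exceeded. It held the lowest value of the 8 west coast summer fish for 51 of the 150 members (23.7% of the eligible probes had their lowest value there) and the highest for 15. The summer results for the members named below are given with and without it.

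In fall the mean over the 150 probes separated the coasts without overlap in either year, as a list selected on this difference would. In 2008 it ran from -0.36 to 0.15 (median -0.19) in 11 Strait fish and from -1.27 to -0.43 (median -0.93) in 17 west coast fish. In 2009 it ran from -0.41 to 0.76 (median 0.19) in 43 Strait fish, and the 7 west coast fish had -1.10, -0.95, -0.72, -0.70, -0.63, -0.61 and -0.49. The mean over all eligible probes stayed near the pool in the same fish, at -0.068 ± 0.055 (SD, n = 11) and -0.11 ± 0.087 (n = 17) in 2008 and at -0.035 ± 0.103 (n = 43) and -0.050 ± 0.118 (n = 7) in 2009. The median member difference was -0.64 in 2008 and -0.88 in 2009, against -0.030 and -0.023 over the eligible probes. West coast fall fish of 2009 were also longer, at 29.4 ± 2.66 cm (SD, n = 7) against 24.3 ± 2.36 cm (n = 43). In 2008 the mean lengths were close, at 25.5 ± 4.97 cm (n = 17) and 25.1 ± 1.58 cm (n = 11), but the spreads were not. West coast fish of 2008 ran from 16.0 to 32.8 cm (median 23.4) and Strait fish from 21.5 to 27.2 cm (median 25.2), so length was not matched.

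The most negative member was C246R033, at -1.66 in 2008 and -1.29 in 2009. In fall 2008 it ran from -0.35 to 1.44 (median 0.49) in the Strait and from -2.75 to -0.13 (median -0.90) off the west coast, and in fall 2009 from -0.55 to 2.43 (median 0.92) against -1.03 to 0.27 (median -0.46). The next was C117R080, at -1.25 and -1.44. Its values were low in most fish, with a fall range of -3.59 to -1.04 in the 24 west coast fish and of -2.90 to 1.33 in the 54 Strait fish. The ranges of the coasts overlapped for C246R033 within each year, and for C117R080 when the years were joined. At the edge of the rule, C057R132 (-0.52 and -0.66) and C250R068 (-0.52 and -1.37) were the last to enter, and C262R117 (-0.52 and -1.01) and C204R097 (-0.52 and -1.04) just missed. On either side of the limit the rule's value was the same to 2 decimals.

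In summer 2009, in fish that the coast contrast of the rule did not use, 13 of the 150 members were lower off the west coast at an adjusted p under 0.05 by limma and none was higher. These tests compared 8 west coast with 35 Strait fish, and the adjustment ran over all 33111 probes tested. Of all probes 1.3% were called, and 2.21% of the eligible probes were called lower, against 8.67% of the members. The 13 calls rest on fish 2314: without it no member was called (smallest adjusted p = 0.079 by limma), and 24 probes were called in all. The direction did not rest on it. The fitted difference was below 0 in 140 members and, without fish 2314, in 137, against 3285 and 3191 of the 5700 eligible probes. The median member difference was -0.34 (quartiles -0.58 and -0.19) with it and -0.32 without it, against -0.064 and -0.046 over the eligible probes. The summer means entered the rule only through the fall minus summer window, which joins the coasts.

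Fish by fish, the mean over the members in summer was -0.85, -0.57, -0.55, -0.46, -0.45, -0.42, -0.39 and -0.29 off the west coast. In the Strait it ran from -0.65 to 0.48 with a median of -0.072. All 8 west coast fish lay below the Strait median, and 8 of the 35 Strait fish lay below the highest west coast fish, so the coasts overlapped in summer. The lack of overlap in fall is no yardstick for this, since the fall fish chose the members. A change of the coast difference from summer to fall was not tested. On the 3 slides that held summer fish of both coasts the difference of the means was -0.061, -0.50 and -0.73, the last on the slide of fish 2314.

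The largest summer falls were those of C070R102 and C131R062. C070R102 had -6.43, -2.71, -1.11, -0.99, -0.99, -0.73, -0.67 and 0.26 in the west coast fish and -2.27 to 0.90 (median -0.13) in the Strait, a fitted difference of -1.51 (SE 0.31, adjusted p = 0.0043 by limma). Fish 2314 held the lowest value, and without it the difference was -0.76 (adjusted p = 0.28). C131R062 had -4.05, -2.02, -1.69, -1.13, -1.04, -0.21, -0.18 and 0.60 off the west coast and -0.89 to 1.63 (median 0.040) in the Strait, a difference of -1.35 (SE 0.29, adjusted p = 0.0062), or -0.95 without fish 2314 (adjusted p = 0.16). C246R033, the top member, was among the 13, at -1.22 (SE 0.25, adjusted p = 0.0043), or -0.998 without fish 2314, its lowest (adjusted p = 0.090). C117R080 was not, at -0.20 (SE 0.38, adjusted p = 0.83), with values from -3.33 to 2.00 off the west coast. Here too 1 fish stood alone, since the value of 2.00 was that of fish 2314 and the next highest was -0.83. Without it the C117R080 difference was -0.78 (SE 0.38, adjusted p = 0.43).

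The stock regions of the coasts did not overlap in summer. The west coast fish came from Columbia (6), Oregon (1) and North (1), and the Strait fish from Fraser (16), ECVI (10) and S_Main (9), so coast and stock cannot be told apart in these fish. West coast fish were shorter, at 15.9 ± 1.68 cm (SD, n = 8) against 18.2 ± 2.20 cm (n = 35), and 7 of 8 were wild against 17 of 35. With wild fish only, which kept fish 2314, 18 members were called lower. The share of all probes called in that fit is not given here. With length as a term in a fit of these 2 groups, or with these groups alone, none was called, and the median member difference was -0.28 and -0.34.

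In winter the members were low on both coasts. The 6 west coast fish had means of -1.18, -1.05, -1.01, -0.95, -0.95 and -0.77, and the 3 Strait fish -1.03, -0.66 and -0.50. The Strait winter means thus lay within the range of the west coast fall fish of 2009 (-1.10 to -0.49). In Strait winter fish 73 of the 150 probes were lower and 77 higher than in those fall fish, with a median difference of 0.020. Of the eligible probes 49.5% were lower (median 0.0054), so the even split is not particular to the members. Relative to Strait summer fish of 2009, Strait winter fish were lower in 137 members (median -0.58), against 51.8% of the eligible probes (median -0.019). Off the west coast winter was lower than summer in 133 members (median -0.48), against 53.5% of the eligible probes. These are differences of group means, given without a test because the rule used the summer fish in its window and the fall fish in its coast contrast. The low values of the west coast fall fish were selected on, so they are no neutral yardstick for winter.

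Between the coasts in winter no member was called by limma in 6 against 3 fish, and 0% of the 20731 probes tested were called. At an unadjusted p under 0.05 there were 4 members, where 8.93% of all probes passed. With array weights 51 members were called (45 lower, 6 higher), as were 9038 of all probes. The fitted difference was below 0 in 122 members (3412 of the 5700 eligible probes), with a median of -0.27 against -0.10. Leaving out Strait fish 4125 moved that median to -0.095, and leaving out Strait fish 4129 moved it to -0.43. The smallest p among members was that of C184R152, with -2.45, -1.09, -0.97, -0.82, -0.70 and -0.69 off the west coast and -0.78, -0.27 and 0.0068 in the Strait (difference -0.73, 95% interval -1.40 to -0.059, adjusted p = 0.54). Without 1 fish the C184R152 difference ran from -0.91 to -0.46, the latter without west coast fish 4207 (adjusted p = 0.79), and with array weights it was -0.76 (adjusted p = 0.021). The median 95% interval of the members, not adjusted for the number of probes, reached 0.74 to either side. The median fall differences were -0.64 and -0.88, and these were selected on. The adjusted threshold is stricter than the interval, so the lack of winter calls does not show that the coasts were alike. The winter fish of the Strait were all from NM_SoG, of the Fraser region, wild and male. Those of the west coast were of Puget_Sound (5) and North (1), with 4 from hatcheries, so stock, origin and coast cannot be told apart. The only slide with winter fish of both coasts gave a difference of -0.014. The coast difference of winter minus that of summer was tested as an interaction by limma, and no member was called (0% of 20708 probes). At an unadjusted p under 0.05 there were 3 members, where 6.11% of all probes passed.

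Across all 16 groups the members had their lowest mean in west coast winter fish for 69 probes (46.0%, against 14.8% of the eligible probes). It lay in Strait winter fish for 19 (12.7%, against 9.63%) and in Capilano smolts for 20 (13.3%, against 9.47%), both nearer the share of the eligible probes. In spring, the first ocean season sampled, the mean over the members ran from -0.56 to -0.059 (median -0.42) in 12 fish. In Strait summer fish of 2009, 124 members were higher than in spring (median difference of the means 0.21, against 0.024 for the eligible probes). The spring fish were all wild, against 17 of the 35 summer fish, so season and origin are partly tied there. The members' highest mean lay in the Strait fall fish of 2009 for 86 probes (57.3%, against 11.8%). In 2009 the Strait fish rose from summer to fall in 145 members (median difference of the means 0.33), and the west coast fish fell in 117 (median -0.26). Of the eligible probes 46.7% were lower in fall in the Strait (median 0.022) and 43.1% off the west coast (median 0.057). Since the rule asked for like means over all summer and all fall fish and for a drop between the coasts in fall, it favoured opposite courses on the coasts. In 2008 the Strait means of summer and fall differed by a median of 0.0064, with 74 members lower and 76 higher in fall. Of the eligible probes 56.6% were lower there (median -0.074).

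Summer fish of the Strait differed between years in 26 members by limma (35 fish of 2009 against 8 of 2008): 25 were higher and 1 lower in 2009. Of all probes 15.7% were called, and of the eligible probes 10.6% were called higher and 6.21% lower. The members' total of 17.3% was near this background. The called members split 25 to 1, but over all 150 the fitted difference was below 0 in 68, with a median of 0.031. C057R132 was higher by 1.26 (SE 0.27, adjusted p = 3.6e-04) and C117R080 by 1.25 (SE 0.39, adjusted p = 0.017, or 0.053 without fish 526). C219R092 was lower by 0.62, with 0.31 to 1.28 (median 0.59) in 2008 and -0.92 to 0.84 (median 0.026) in 2009 (fitted difference -0.62, SE 0.21, adjusted p = 0.030). Its adjusted p was 0.062, 0.092 and 0.097 without fish 502, 552 and 576. The count of members was 1 when slide was a fixed term, 10 after quantile normalization and 12 after scaling each array, and it was 16 without any 1 of those 3 fish.

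C057R132 took 2 distinct levels in the summer fish of 2008. In 5 of them it lay at -2.27, -2.23, -2.23, -2.20 and -2.02, and in the other 3 at -0.27, 0.015 and 0.22. Over all arrays 18 of 206 fish lay below -1.3, a limit chosen after its values were seen: 5 of 8 Strait summer fish of 2008, 4 of 17 and 2 of 7 west coast fall fish (2008 and 2009), 2 of 3 and 1 of 6 winter fish (Strait and west coast), 1 of 5 parr and 3 of 16 Chilliwack smolts. None of the 54 Strait fall fish lay there. No wide gap marks the limit, since the nearest values were -1.35 and -1.21. Leaving out the fish below it removes only west coast fish in fall, by their own low values. This must raise the west coast mean, so the values left are a description and test nothing. In the fish left, the west coast and Strait means of C057R132 were -0.27 (n = 13) and -0.24 (n = 11) in fall 2008. In fall 2009 they were -0.080 (n = 5) and 0.20 (n = 43). The medians of the same fish were -0.17 and -0.27 in 2008 and -0.012 and 0.12 in 2009, so in 2008 the order of the coasts differs between mean and median.

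By stock, fall fish of 4 regions were caught on both coasts: Chilliwack_R, ECVI, North and S_Main. In these, pooled, the mean over the members in 2008 was -0.98 ± 0.31 (SD, n = 6) off the west coast and -0.21 ± 0.045 (n = 4) in the Strait, and in 2009 -0.89 ± 0.25 (n = 3) and 0.21 ± 0.26 (n = 30). Within a year the coasts were not matched by region. In 2008 the west coast had North (2), S_Main (2), ECVI (1) and Chilliwack_R (1), and the Strait Chilliwack_R (3) and North (1). In 2009 the west coast had ECVI (2) and North (1), and the Strait ECVI (17), S_Main (12) and Chilliwack_R (1). The highest west coast fish (-0.43) lay below the lowest Strait fish (-0.41). Most of these west coast fish were of 2008 and most of these Strait fish of 2009. Strait fall fish were higher in 2009 than in 2008 in 138 of the 150 members (median difference of the means 0.36). Of the eligible probes 43.6% were lower in 2009 (median 0.065). The values of single regions, given next, thus mix years. ECVI fish had -0.89 ± 0.25 (n = 3) against 0.17 ± 0.29 (n = 17), and the 2 west coast S_Main fish had -0.89 and -0.43 against 0.30 ± 0.22 (n = 12), the former all of 2008 and the latter all of 2009. The west coast fish of Chilliwack_R had -1.26, and 4 Strait fish of that region ran from -0.23 to 0.043. North fish had -1.27, -1.06 and -0.95 off the west coast and -0.27 in the Strait. With fish of these 4 regions alone, pooled within each year, 148 of the 150 members were lower off the west coast in both years. Of the 150, 78 would have been chosen. These fish are part of the contrast that chose the members, so the values describe its make-up and test nothing.

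Among fish of 1 coast, stock region separated no member at the threshold. For the Strait in fall 2009 (ECVI 17, Fraser 13 and S_Main 12 fish, with area as a term) limma's F test called 0% of 29133 probes, and 7 members passed at an unadjusted p under 0.05, where 4.18% of all probes did. The smallest p was that of C256R102, which ran from -1.43 to 0.014 (median -0.58) in S_Main fish, from -0.49 to 0.36 (median -0.10) in ECVI and from -0.58 to 0.31 (median -0.25) in Fraser (adjusted p = 0.95). Means over the members were 0.17 ± 0.29 (SD, n = 17) in ECVI, 0.19 ± 0.29 (n = 13) in Fraser and 0.30 ± 0.22 (n = 12) in S_Main.

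Off the west coast in fall, Columbia, Oregon and Washington fish (10) were set against Puget_Sound, ECVI, S_Main and Chilliwack_R fish (11) with year as a term. By limma 0% of 30511 probes were called. The slide correlation of this fit was 0.70, estimated from 21 arrays, against 0.162 over the 150 ocean arrays. With so few fish, the lack of calls does not show that the stocks were alike. At an unadjusted p under 0.05 there were 2 members, against 2.59% of all probes. The mean over the members was -0.72 ± 0.19 (SD, n = 10) in the former and -0.84 ± 0.29 (n = 11) in the others, and the median fitted difference was 0.028 against 0.032 for the eligible probes. The smallest p was that of C232R034, at -0.64 (95% interval -1.15 to -0.13, adjusted p = 1.0). Between NM_SoG (21 fish) and south_SoG (22 fish) in fall 2009, limma called 0% of 31913 probes. The 4 members at an unadjusted p under 0.05 compare with 3.45% of all probes, and the means over the members were 0.21 ± 0.26 and 0.20 ± 0.28 (SD). C259R079 had the smallest p (-0.34, 95% interval -0.59 to -0.092, adjusted p = 0.996).

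Within coast and year, few members were called in fall fish by length, origin or sex in the main fits. Per cm of fork length no member was called by limma, against 0.192% of all probes. At an unadjusted p under 0.05, 24 members (16.0%) passed, where 9.88% of all probes and 10.6% of the eligible probes did. The slope was below 0 in 99 members (66.0%), against 56.3% of the eligible probes. C137R023 came nearest, at -0.050 per cm (SE 0.014, adjusted p = 0.084). By origin, 2 members were higher in hatchery fish, where 1.29% of all probes were called and 0.316% of the eligible probes were called higher. They were C250R068, at 0.48 (SE 0.13, adjusted p = 0.041), and C027R006, at 0.48 (SE 0.13, adjusted p = 0.043), and neither was called after scaling each array, after removal of block medians over the array or when slide was a fixed term. In the largest group, the Strait fish of 2009, C250R068 ran from -0.63 to 1.33 (median 0.26) in 21 hatchery fish and from -1.16 to 0.63 (median -0.082) in 22 wild fish, and C027R006 from -0.61 to 2.24 (median 0.18) and from -1.61 to 0.81 (median 0.13). Off the west coast in 2008 the medians of 5 hatchery and 12 wild fish were -0.53 and -1.41 for C250R068 and 0.25 and -0.86 for C027R006. In the Strait in 2008 those of 4 hatchery and 7 wild fish were -0.51 and -0.64, and 0.24 and -0.0065. Off the west coast in 2009 the 1 hatchery fish had -1.53 in C250R068, below the wild median of -0.71 (n = 6). In C027R006 it had 0.083, against -1.01. Fitted origin differences were above 0 in 126 members, with a median of 0.14 against 0.033 over the eligible probes. They were below 0 in 24 members and in 2453 of the 5700 eligible probes. Among the 150 probes most positive in both falls (the mirror rule), 112 were below 0. Origin was uneven in the contrast that chose the members. Hatchery fish were 1 of 7 off the west coast and 21 of 43 in the Strait in 2009, and 5 of 17 and 4 of 11 in 2008. The part of this in the lean was not tested. By sex limma called 0% of 35366 probes. At an unadjusted p under 0.05 there were 8 members (5.33%), where 3.29% of all probes and 1.95% of the eligible probes passed. C217R029 had the smallest p (0.27 higher in males, 95% interval 0.065 to 0.48, adjusted p = 1.0).

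In river fish, which entered neither contrast of the rule, the mean over the members was lowest in Capilano smolts, at -0.58 ± 0.26 (SD, n = 10), and between -0.25 and -0.12 in smolts of the other 4 rivers. Puntledge smolts had the highest, at -0.12 ± 0.21 (n = 8), and 129 members were lower in Capilano than in Puntledge smolts (median difference of the means -0.47, against -0.071 for the eligible probes), a pair picked after the means were seen. Parr had -0.63, -0.54, -0.42, -0.24 and -0.12. Over the 4 rivers of 2009 limma's F test called 0.00346% of the 28864 probes and no member. At an unadjusted p under 0.05 there were 31 members (20.7%), where 8.7% of all probes and 10.4% of the eligible probes passed. Of the 150 probes of the mirror rule 32 passed (21.3%), so this share is not particular to the members. C157R142 had the smallest p (F = 9.27, adjusted p = 0.11). All Chehalis and Puntledge smolts were from hatcheries and all Salmon smolts were wild, so origin is partly tied to river.

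The members' values were correlated within groups. Over pairs of members the median Pearson correlation was 0.13 among 51 smolts (river means removed), 0.20 among 35 Strait summer fish and 0.26 among 43 Strait fall fish of 2009, against 0.030, 0.023 and 0.012 for pairs of eligible probes. These correlations are a description over arrays that share a pool and slides, and of these arrays the fall fish, through the coast contrast, and the summer fish, through the window, had a part in choosing the members. In smolts 72.5% of the member pairs were above 0 and 2.85% above 0.5, against 55.1% and 2.15% of the eligible pairs.

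The members were not spread evenly over the array. The share in the columns above 133, of 266, was 65.3%, against 48.7% of the eligible probes, and it was 33.3% among the 150 probes chosen by the mirror rule (most positive in both falls). The fall coast difference of eligible probes fell across the columns in 2009, from a median of 0.13 in columns 1 to 45 to -0.097 in columns 223 to 266. In 2008 the same bands had 0.015 and -0.013, with the lowest median, -0.088, in columns 179 to 222. In summer the drift ran the other way (-0.078 and -0.0082). With each array's median within blocks of 19 columns by 17 rows removed, 116 of the 150 would have been chosen, and the median summer difference was -0.34. By band of columns, the members made up 8.00% in columns 1 to 45, 24.0% in columns 179 to 222 and 20.0% in columns 223 to 266, where the eligible probes had 15.9%, 16.5% and 14.6%. The part of position in membership was not tested beyond this.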

How the data were processed

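The authors deposited a table of log2 ratios per probe and array, with the log base and direction read from the values, and a second table that repeats it; per the labels' protocols, amplified brain RNA was hybridised with a pooled reference. How spots were read and normalized, and why values are empty, is not given in the sources used here, and array scales were kept as deposited. Precision is limited by the number of arrays.

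Each probe was fitted by generalised least squares with moderated variances (limma 3.58.1, R 4.3.3). Arrays on 1 of the 61 slides shared a correlation, estimated from 2000 probes (0.162 over the 150 ocean arrays). Probes needed 3 values per side, or 10 for a slope. Fits that left out 1 Strait winter fish needed 2 values per side. P-values were adjusted by Benjamini-Hochberg over all probes at 0.05. Summer and winter contrasts came from 1 fit of all ocean arrays. The code was checked against limma and tested on simulated data. Of each of the 10 comparisons, at most 2 rising and 2 falling called members, or else the 1 with the smallest p, are named, beside the members at the top and edge of the rule. Members, lists and tests were chosen with earlier results of these data known. Lists of genes and markers could not be used without gene names. Fish numbers are taken as separate animals. Alternatives changed the slide term, the normalization, the fish or the terms.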

Additional observations from a re-analysis of the deposited data

Results flagged for a closer look

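Among 144 sets of 4 to 10 fish (the named members and the mean over all members, each by group), 24 had 1 fish far from the others. For independent sets of normal values about 1 in 20 would be so marked. The sets here share fish, and some members were named for large differences in these same fish, so no excess can be read from the count. Fish 2314, from the west coast in summer, accounts for 3 of the 24: -6.43 in C070R102 (next -2.71), 2.00 in C117R080 (next -0.83) and 1.97 in C232R034 (next -2.47). In the same group fish 2361 had -0.71 in C057R132 and fish 2311 had 0.79 in C259R079. Fall fish 3511 of the west coast (2009) had -3.19 in C250R068 and -2.50 in C256R102. In winter off the west coast, fish 4217 had -2.69 in C057R132 and fish 4207 had -2.45 in C184R152. Strait summer fish 502 of 2008 had -2.34 in C184R152.

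The other 14 were smolts. In the Capilano, fish 1544 had -2.22 in C027R006 and -2.10 in C157R142, fish 1535 had -1.297 in C131R062 and 1.12 in C250R068, and fish 1536 had -2.55 in C137R023 and -3.21 in C256R102. In the Chehalis, fish 1623 had -1.41 in C256R102 and fish 1620 had -3.43 in C259R079. In the Puntledge, fish 1691 had -2.62 in C070R102, and fish 1690 had 1.37 in C250R068 and 1.57 in C256R102. In the Salmon, fish 1443 had 0.95 in C070R102, and fish 1438 had 1.53 in C157R142 and 1.18 in C219R092. No mean over the 150 members was set apart in this way.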

How the results depend on the processing

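The number of members called lower in summer (13) was 6 with slide fixed, 20 with arrays scaled to 1 spread, 4 with array weights, 24 among probes with a value on all arrays, 21 with block medians over the array removed (chosen after seeing the data), 3 against NM_SoG fish only, and 0 with only the 2 groups compared or with fork length as a term. All of these fits kept fish 2314, and the count over all probes is given below for some of them only. Without 1 west coast fish the number of members ran from 0 (fish 2314) to 22 (fish 2361), and 24 to 660 of all probes were called. The median summer difference stayed between -0.43 and -0.28 in all alternatives. In winter, array weights gave 51 called members and a median of -0.50; in that fit 9038 of all probes were called. Without 1 winter fish the median ran from -0.43 to -0.095 and no member was called. Where the fish left out was of the Strait, 2 fish stood for the Strait and 2 values per side were enough. With the 2 winter groups alone no slide correlation could be estimated and none was used.

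By year in summer (26), 1 member was called with slide fixed, 10 with quantile normalization, 12 with arrays scaled, and 16 to 31 without 1 fish of 2008. For length (0), 50 were called with array weights and 1 with no slide term, after quantile normalization, among complete probes, with block medians removed, or with origin and sex as terms. For origin (2), the count was 0 with slide fixed, arrays scaled or block medians removed, and 1 after quantile normalization. For smolt rivers (0), it was 1 after quantile normalization and 3 with array weights. Stock, area and sex gave 0 throughout. The cause was not tested. Of the 150 members, 78 were kept with shared stock regions only, 81 with medians, 90 with no season window and 140 to 147 without 1 west coast fish of fall 2009. No paired analysis was possible because the groups share no replicate numbers; slides that hold both coasts are the only link between fish, and enter as the slide term. Few fish, the empty values and 1 fish per array limit the winter and west coast summer comparisons.

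Counts over all probes moved more. For the coasts in summer (429) they were 215 with slide fixed, 783 with quantile normalization, 987 with arrays scaled, 107 against NM_SoG fish, 8 with the 2 groups alone and 3 with length. By year (4600) they were 173, 2652 and 2640 in the first 3 of these settings. For origin (441) they were 0, 193 and 100, 1184 if slides were ignored, and 1624 with array weights. For length (65) they ran from 0 in Strait fish to 5036 with array weights, and for rivers (1) from 0 to 306. In winter (0), 546 were called without Strait fish 4129, a fit in which 2 values per side were enough.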
